A study of Mus musculus with 24 samples.

Results

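Reduced representation bisulfite sequencing (RRBS) of infant BAT gave 155 MspI fragments that the authors' annotation named for 9 genes of DNA methylation and chromatin modification, out of 65535 fragments in the table analysed here. The genes were chosen by name, as Dnmt3b, Tet2, Mbd5, Bmi1, Asxl1, Suv39h2, Setdb1, Ehmt1 and Hdac4. The rule used no measured value, but earlier results of these data were known when the genes were chosen. The 24 libraries came from C57BL/6J female pups at PND 12. In 12 of them (VEH) the dams had been gavaged with olive oil, and in the other 12 (DDT) with p,p'-DDT and o,p'-DDT mixed into the oil, from mid-gestation to PND 5. Each library was intrascapular BAT pooled from 2 to 5 female littermates, so each library stood for a litter and mixed every cell type of the depot. The table ends within chromosome 3, and defining BAT markers such as Ucp1 lie on chromosomes not analysed here, so the tissue label could not be checked.

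The 9 proteins write, read or remove marks on DNA and histones. Dnmt3b adds methyl groups to unmethylated CpGs, and Tet2 oxidizes 5-methylcytosine, a step on the way to its removal. Mbd5 carries a methyl-CpG binding domain. Bmi1 is a core subunit of Polycomb repressive complex 1, which ubiquitinates histone H2A, and Asxl1 is a cofactor of the H2A deubiquitinase Bap1. Suv39h2, Setdb1 and Ehmt1 (also called GLP) methylate histone H3 at lysine 9, and Hdac4 is a class IIa histone deacetylase. In mammalian tissues CpG islands at gene starts are mostly unmethylated, whereas CpGs in gene bodies are mostly methylated, and in RRBS the methylation level of a fragment is the share of its CpG calls that read as methylated.

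Testing required 10 or more calls in 8 or more VEH and 8 or more DDT libraries, which 66 of the 155 fragments met, against 20225 of 65535 in the whole table. Tet2 had 44 fragments with 11 tested, Hdac4 had 30 with 14 tested, Dnmt3b had 21 with 4 tested and Bmi1 had 18 with 17 tested. Asxl1 had 15 with 11 tested, Setdb1 had 11 with 1 tested, Mbd5 had 7 with 3 tested, Suv39h2 had 7 with 4 tested and Ehmt1 had 2 with 1 tested. Of the 89 fragments not tested, 74 stayed under 10 calls in every library. Total calls ran from 8371958 to 13768991 in VEH and from 9895508 to 14124652 in DDT, and the median calls of the 66 fragments ran from 281.5 to 427.5 per library, apart from DDT replicate 4 with 23.5. The mean level of each library was taken over the tested fragments of the table at which it had a level. It was 31.6% to 33.9% in the VEH libraries and 16.9% in DDT replicate 4. It was 28.4% in DDT replicate 12 and up to 34.2% in the other DDT libraries. DDT replicate 4 had a level at 59.96% of the tested fragments, against 85.4% or more in each other library. Its mean thus covers a different set of fragments and is not directly comparable with the others.

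Sequences of 10 fragments are shown because their length and CpG content bear on the levels that follow. All are the plus strand of GRCm38, begin at the MspI cut within CCGG, and have each CpG in capitals. The first 4 lie next to each other in the CpG island at the Tet2 start and are near-identical copies, with 8 or 9 CpGs each.
Tet2 start, chr3:133544484-133544525: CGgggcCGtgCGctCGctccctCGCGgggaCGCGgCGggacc
Tet2 start, chr3:133544526-133544567: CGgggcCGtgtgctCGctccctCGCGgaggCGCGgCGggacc
Tet2 start, chr3:133544568-133544609: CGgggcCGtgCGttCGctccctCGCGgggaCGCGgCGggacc
Tet2 start, chr3:133544610-133544651: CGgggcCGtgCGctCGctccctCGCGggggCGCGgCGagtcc
The next, in an intron within the Bmi1 start island, packs 15 CpGs into 50 bp.
Bmi1 island, chr2:18677570-18677619: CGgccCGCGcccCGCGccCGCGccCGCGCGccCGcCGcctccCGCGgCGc
The Setdb1 and Tet2 coding exon fragments stand for gene bodies, with 3 and 5 CpGs.
Setdb1 exon, chr3:95338733-95338804: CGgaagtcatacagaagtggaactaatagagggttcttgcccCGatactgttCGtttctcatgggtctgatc
Tet2 exon, chr3:133468038-133468159: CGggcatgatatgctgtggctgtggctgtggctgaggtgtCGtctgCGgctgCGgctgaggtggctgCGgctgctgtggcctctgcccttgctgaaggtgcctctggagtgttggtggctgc
The last 3 show how few CpGs an intronic level can rest on. The Mbd5 fragments abut each other, with 3 CpGs in the first and 1 in the second, and the Ehmt1 fragment has 1.
Mbd5 intron, chr2:49308622-49308661: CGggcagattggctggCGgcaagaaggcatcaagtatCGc
Mbd5 intron, chr2:49308662-49308748: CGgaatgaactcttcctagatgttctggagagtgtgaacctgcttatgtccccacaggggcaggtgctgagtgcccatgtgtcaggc
Ehmt1 intron, chr2:24837206-24837246: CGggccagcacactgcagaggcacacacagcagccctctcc

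In unexposed (VEH) BAT the starts of Tet2, Bmi1, Asxl1, Suv39h2 and Hdac4 were lowly methylated. All 44 tested fragments within 1000 bp of these starts lay in CpG island cores, with VEH means between 0.134% and 15.5% and a median of 2.85%. Over all 6812 tested island core fragments of the table the median was 3.7%. Among the genes, the median at the start was 2.65% for Tet2 over 7 fragments, 2.54% for Bmi1 over 15, 6.68% for Asxl1 over 8, 4.56% for Suv39h2 over 4 and 2.77% for Hdac4 over 10. No order among the genes was tested, since the fragments of a gene share the same libraries.

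Tet2 (chr3:133463679-133545139, minus strand, ENSMUSG00000040943.12) had its start covered by the fragment chr3:133544373-133544483, in the 5' exon with 22 CpGs. The VEH libraries ranged from 0% to 9.09% with a median of 0%, and the DDT libraries from 0% to 12.5% with a median of 3.47%. Their ranges overlapped, and the means of 2.08% ± 3.05 (SD, n = 11) and 4.20% ± 4.11 (n = 9) did not differ beyond the spread (exact permutation test, two-sided, p = 0.208). The 4 copies shown above averaged 1.13%, 2.65%, 2.90% and 1.95% in VEH, in order of position. They shared between 38 and 41 of 42 bases, and the copies starting at 133544484 and 133544568 differed only by C13T, counted from 1 at the 5' end. Bisulfite turns an unmethylated C into T, so reads of that strand cannot tell these copies apart at this base, and their levels are uncertain.

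Bmi1 (chr2:18677018-18686629, plus strand, ENSMUSG00000026739.13) was the most densely covered start, with 15 tested fragments between 0.945% and 15.5%. The fragment over the start itself, chr2:18676949-18677101, was the highest of them. Its VEH libraries ran from 6.12% through a median of 14.4% to 29.9%, and its DDT libraries from 0.394% through 12.0% to 20.9%. Their means were 15.5% ± 7.65 (SD, n = 12) and 11.8% ± 5.59 (n = 12), with overlapping ranges (permutation test, two-sided, p = 0.181). DDT replicate 4 was the lowest, and without DDT replicates 4 and 12 the DDT mean was 12.58% ± 4.68 (n = 10). The fragment directly before it, chr2:18676861-18676948, averaged 2.06% ± 0.761 in VEH and 1.57% ± 0.784 in DDT (n = 12 each; permutation p = 0.139), and 1.75% ± 0.662 in DDT without those libraries, DDT replicate 4 being at 0%. The 50 bp fragment shown above, with 15 CpGs, averaged 1.32% ± 0.267 in VEH. A second covered stretch lay 4127 bp into the gene, in exon sequence annotated as UTR at an island shelf. There chr2:18681145-18681244 held 21.0% ± 17.0 in VEH (n = 11) and 11.9% ± 9.50 in DDT (n = 10), at a median of 26.0 calls. VEH replicate 1 alone reached 64.7%, on 17 calls, and the groups overlapped (permutation p = 0.144). Without DDT replicates 4 and 12 the DDT mean was 13.9% ± 9.44 (n = 8).

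Asxl1 (chr2:153345829-153404007, plus strand, ENSMUSG00000042548.14) alternated between low and moderate levels along its start island. The fragment over the start, chr2:153345724-153345931, averaged 12.0% ± 3.7 in VEH and 11.8% ± 5.86 in DDT (n = 12 each; permutation p = 0.915). DDT replicate 4 was at 0% there, and without DDT replicates 4 and 12 the DDT mean was 13.46% ± 4.58, so that the difference turned from -0.217 to 1.44 percentage points. The adjoining chr2:153345932-153345990 averaged 2.0% ± 0.809 in VEH and 1.38% ± 1.52 in DDT. At the latter 11 of 12 DDT libraries lay under the VEH median of 2.25%, while DDT replicate 3 stood at 6.0%, and the permutation p was 0.245. Without DDT replicate 3 the difference went from -0.615 to -1.03 percentage points and the unadjusted p of the F test from 0.230 to 0.00128. That was the only 1 of 24 runs with a library left out in which this p fell under 0.05, and the highest was 0.343. DDT replicate 4 was at 0% there on 12 calls, and without DDT replicates 4 and 12 the DDT mean was 1.54% ± 1.61 (n = 10).

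Suv39h2 (chr2:3455815-3475031, minus strand, ENSMUSG00000026646.16) had 4 tested fragments in its start island, between 0.481% and 9.0% in VEH. The highest, chr2:3474472-3474510 in an intron with 1 CpG, ran from 5.26% through 9.35% to 14.9% in VEH and from 0% through 5.88% to 12.2% in DDT. The means were 9.0% ± 3.09 (SD, n = 12) and 6.5% ± 3.53 (n = 11), with 9 of 11 DDT libraries under the VEH median (permutation test, two-sided, p = 0.0855). DDT replicate 12 was the library at 0%, replicate 4 had no level, and without them the DDT mean was 7.15% ± 2.95 (n = 10). Nearest the start, chr2:3474891-3475013 was at 0% in 8 of 10 VEH and 8 of 9 DDT libraries, at a median of 22 calls (exact permutation test, p = 0.526). The DDT library above 0% was replicate 12.

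Hdac4 (chr1:91928779-92195699, minus strand, ENSMUSG00000026313.16) was covered at the start of its longest protein-coding transcript by 10 fragments between 0.134% and 8.19%. The authors' annotation calls these fragments upstream of the gene, whereas in GENCODE M21 they lie in the first exon and intron of that transcript or within 608 bp before it. The deepest of the named fragments, chr1:92180074-92180127, had between 3800 and 7892 calls per library and averaged 3.12% ± 0.310 in VEH, ranging from 2.64% to 3.57%. In DDT it averaged 3.42% ± 1.37, ranging from 2.52% to 7.58%, the latter in DDT replicate 4 (n = 12 each; permutation p = 0.683). Without DDT replicates 4 and 12 the difference turned from 0.301 to -0.055 percentage points.

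No tested fragment within 1000 bp of the start carried the names Dnmt3b, Mbd5, Ehmt1 or Setdb1. For Setdb1 (chr3:95323525-95357202, minus strand) 6 fragments near the start were in the table, all below the coverage needed. For the other 3 genes the start fragments carried the name of a neighbouring gene, a comparison added after the table was seen. The Dnmt3b start (chr2:153649450, plus strand) was covered by 13 tested fragments named for Commd7, between 0.745% and 12.9% in VEH. The Ehmt1 start (chr2:24919614, minus strand) was covered by 6 named for AL732525.2, between 1.61% and 3.52%. The Mbd5 start (chr2:48949523, plus strand) was not itself covered, but 3 tested fragments within 1000 bp were named for Orc4, between 0.876% and 12.8%. They lay 416 and 372 bp before the start and 706 bp after it, inside the overlapping coding gene Orc4 and outside CpG islands. The fragment 109 bp before the start was not tested. The tested fragments near the starts of these 3 genes lay within the range of the other starts. Their smallest unadjusted p of the F test of DDT against VEH was 0.0556.

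Away from the starts the levels varied widely. Of 22 tested fragments farther than 1000 bp from a start, 20 lay outside islands, and 9 of these were over 80% in VEH, 8 between 20% and 80%, and 3 under 20%. The coding exon fragments of Setdb1, Tet2 and Hdac4 were at 96.9%, 96.0% and 95.2%, that of Dnmt3b at 85.4%, and the adjoining pair of Asxl1, chr2:153399305-153399334 (30 bp) and chr2:153399335-153399458, at 72.9% ± 2.10 and 66.7% ± 5.20. The shelf fragments of Bmi1 were at 10.3% and 21.0%.

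**Figure D1:**
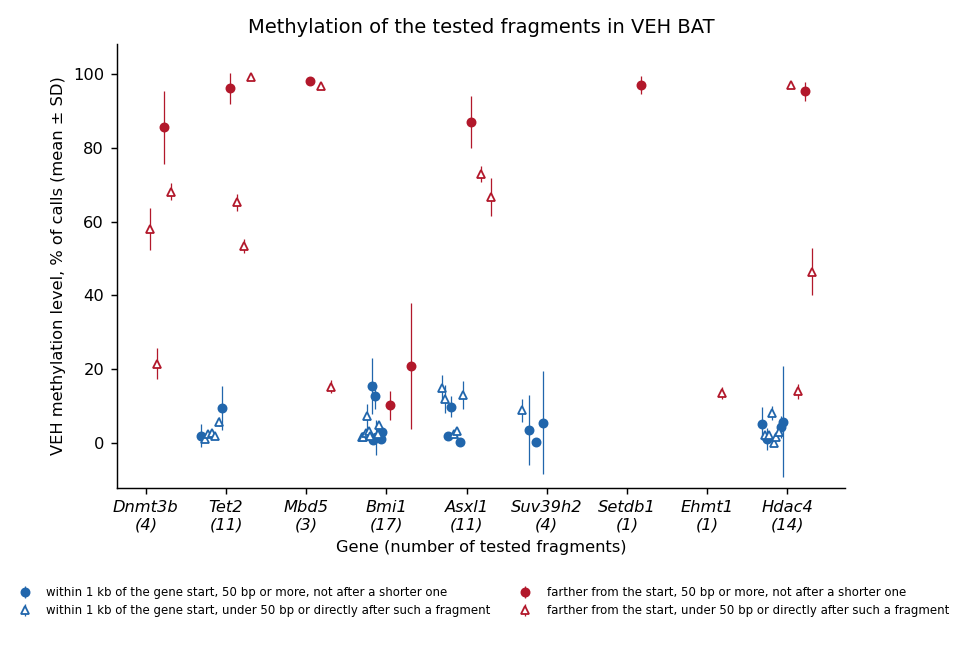
VEH methylation level (% of calls, mean ± SD over libraries) of the 66 tested fragments by gene, blue within 1000 bp of the gene start and red farther away, with open triangles for fragments under 50 bp or directly after such a fragment. The blue points lie between 0.134% and 15.5%, and the 6 filled red points outside islands lie between 85.4% and 98.1%; the filled red points of Bmi1 are in an island shelf.

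For the DNA methylation genes, the Tet2 coding exon fragment chr3:133468038-133468159 ran from 88.2% through 96.9% to 100% in VEH and from 96.2% through 98.1% to 100% in DDT. Its means were 96.0% ± 4.13 (SD, n = 11) and 98.6% ± 1.41 (n = 9), and 8 of 9 DDT libraries lay above the VEH median (exact permutation test, two-sided, p = 0.0761). The highest Tet2 level, 99.1% ± 0.534 in VEH and 99.2% ± 1.09 in DDT (n = 12 and 11; permutation p = 0.783), belonged to chr3:133797383-133797500. That fragment overlaps no annotated protein-coding gene and lies 252993 bp upstream of the start, and 27 of the 44 fragments named for Tet2 lie at least 11325 bp upstream. Dnmt3b (chr2:153649450-153687730, ENSMUSG00000027478.15) had 17 of its 21 fragments at least 50291 bp upstream. Its coding exon fragment chr2:153676821-153676899, with 4 CpGs, held 85.4% ± 9.91 in VEH (n = 12) and 87.9% ± 8.35 in DDT (n = 9), at a median of 27.0 calls (exact permutation test, p = 0.595). Mbd5 (chr2:48949508-49325405, ENSMUSG00000036792.12) was covered deep in its introns. There chr2:49216662-49216717 held 98.1% ± 1.13 in VEH and 98.2% ± 1.01 in DDT (n = 12 and 11; permutation p = 0.785), and chr2:49308622-49308661 held 96.5% ± 0.674 and 96.6% ± 0.827 (permutation p = 0.783).

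Among the histone enzymes, the Setdb1 exon fragment (chr3:95338733-95338804, ENSMUSG00000015697.14) ran from 92.1% through 97.3% to 100% in VEH and from 92.8% through 99.0% to 100% in DDT. The means were 96.9% ± 2.43 (SD, n = 12) and 98.5% ± 2.14 (n = 11), with 10 of 11 DDT libraries above the VEH median (permutation p = 0.108). DDT replicate 12 was the exception, and without it the DDT mean was 99.1% ± 1.0 and the unadjusted p of the F test 0.0152. That was the only 1 of 24 runs with a library left out in which this p fell under 0.05, and the highest was 0.2. The Hdac4 fragment chr1:91928854-91928890, in the 3' UTR, held 96.9% ± 0.438 in VEH and 96.5% ± 2.23 in DDT (n = 12 and 11; permutation p = 0.797). DDT replicate 12 was at 90.3%, replicate 4 had no level, and without them the difference turned from -0.325 to 0.297 percentage points. For Asxl1, chr2:153338981-153339053, 6776 bp upstream of the start, held 87.0% ± 6.99 and 86.1% ± 11.6 (n = 11 and 10; permutation p = 0.850). Ehmt1 (chr2:24789928-24919614, minus strand, ENSMUSG00000036893.17) had a low level at its only tested fragment, the intronic one shown above. It held 13.5% ± 1.61 in VEH and 13.5% ± 1.70 in DDT (n = 12 and 11; permutation p = 0.977), at a median of 664.5 calls. Similarly low VEH levels were found in Hdac4 at chr1:91928891-91929073 (14.1%) and in Mbd5 at chr2:49308662-49308748 (15.4%).

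The low and intermediate levels outside islands went with fragment length. Reads of these libraries were 50 bp long, and a read of a shorter fragment runs through its whole length to the far MspI end. As background, end repair in RRBS fills those ends with new, unmethylated cytosines. Of the 20 tested fragments of the 9 genes outside islands, 6 had at least 50 bp and did not directly follow (at higher coordinates, with no gap) a shorter fragment, and these 6 held 85.4% to 98.1% in VEH. The other 14 ranged from 13.5% to 99.1%, with a median of 61.5%, and included all 8 intermediate and all 3 low levels. Over all genes, 2129 of 3120 intermediate fragments outside islands (68.2%) were short or followed a short fragment. So were 6265 of all 12250 tested fragments outside islands. Of the long ones outside islands 48.6% were over 80%, against 21.2% of the others.

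Some abutting pairs showed the step and others did not. The Mbd5 fragment of 40 bp at 96.5% was directly followed by chr2:49308662-49308748 at 15.4% ± 1.84, and the Hdac4 fragment of 37 bp at 96.9% by chr1:91928891-91929073 at 14.1% ± 2.04. The Dnmt3b fragment chr2:153556196-153556230, of 35 bp with 1 CpG, held 57.9% ± 5.73, and the next, chr2:153556231-153556392, held 21.6% ± 4.21. In Tet2 the order was reversed. There chr3:133797335-133797382, of 48 bp, held 53.3% ± 1.89, and the next, chr3:133797383-133797500, held 99.1% ± 0.534. Across all genes, 266 tested fragments that followed one of under 50 bp with a level over 80% had a median of 26.9%, against 95.6% for 480 that followed one of 50 bp or more. Fragments with a single CpG, outside islands and with no fragment directly before, had a median of 40.05% under 50 bp (n = 1325) and 94.3% from 50 bp (n = 442). The Ehmt1 fragment, of 41 bp with 1 CpG, and the Hdac4 fragment chr1:92226440-92226469, of 30 bp with 1 CpG at 46.5% ± 6.33, belong to the former class. Short fragments of the 9 genes were not all low, as the 40 bp Mbd5 and 37 bp Hdac4 fragments show. The part of read length in the level of any single fragment was not tested.

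**Figure D2:**
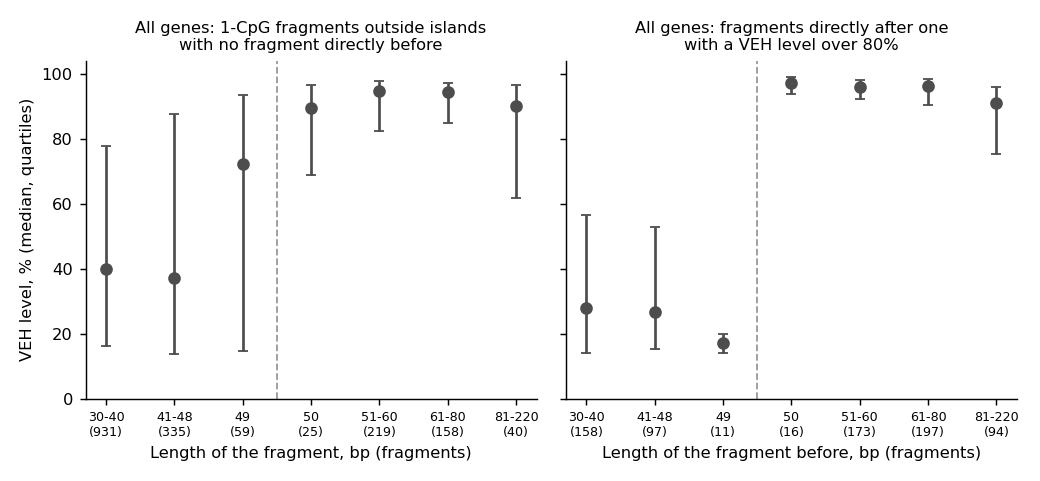
VEH level (%, median with quartiles) over all genes by fragment length in bp, for 1-CpG fragments outside islands (left) and for fragments directly after one with a level over 80%, by the length of that neighbour (right), with the number of fragments in brackets. The dashed line marks 50 bp, the read length, where the median moved from 72.2% at 49 bp to 89.6% at 50 bp on the left and from 17.1% to 97.3% on the right.

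The comparison of DDT with VEH asked whether perinatal exposure changed methylation at these genes by PND 12. No fragment of the 9 genes passed an adjusted p of 0.05 (F test on levels, Benjamini-Hochberg over 20225 fragments), nor did any of the table (0%), where the lowest adjusted value was 0.869. Without adjustment, 2 of 66 fragments (3.03%) had a p under 0.05, 1 lower in DDT (Dnmt3b) and 1 higher (Hdac4), against 845 of all tested fragments (4.18%), of which 593 (2.93% of all tested) were lower and 252 (1.25%) higher. Without DDT replicates 4 and 12 the table had 445 lower and 437 higher of 19558, and the 9 genes 2 lower and 1 higher of 61. Those 2 libraries were picked by their mean levels, both low, so leaving them out is not an independent check of direction. The share at the 9 genes was not above that of the table. In DDT 35 fragments (53.0%) had a lower mean and 31 a higher one, against 56.9% lower over all tested fragments. The median difference was -0.0424 percentage points, beside -0.163 over all tested fragments. At 58 of 66 fragments the difference was smaller than the SD of the VEH libraries, against 16907 of 20225 in the table.

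**Figure D3:**
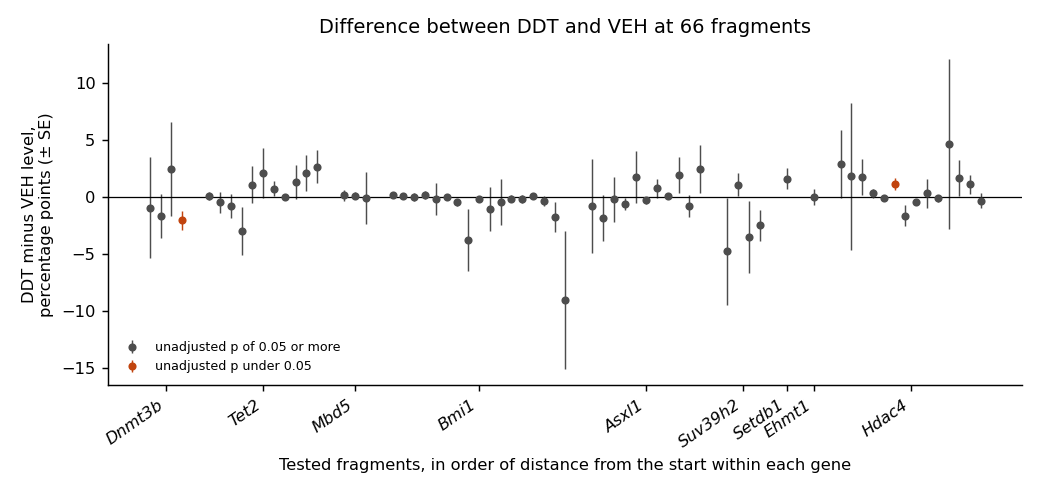
DDT minus VEH methylation level in percentage points (± SE from the pooled variance) at each of the 66 tested fragments, ordered within each gene by distance from the start. Points lie between -9.07 (Bmi1, island shelf) and 4.63 (Hdac4, start island), and the 2 orange points, at -2.06 in Dnmt3b and 1.12 in Hdac4, had an unadjusted p under 0.05.

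The Dnmt3b fragment was chr2:153686573-153686621, 49 bp with 2 CpGs in the 3' UTR of the last exon. Its VEH libraries ran from 63.7% through a median of 68.3% to 70.8%, and its DDT libraries from 62.9% through 66.6% to 68.9%. The groups overlapped widely, although 11 of 12 DDT libraries lay under the VEH median. The means were 68.1% ± 2.30 (SD, n = 12) and 66% ± 1.75 (n = 12), a difference of -2.06 ± 0.836 (SE) percentage points (F test p = 0.0217, adjusted p = 0.869; permutation test, two-sided, p = 0.0229). DDT replicate 4 gave 66.7% from only 12 calls, against a median of 812 calls over the libraries. Without DDT replicates 4 and 12 the DDT mean was 66.2% ± 1.61 (n = 10). The fragment falls 1 bp short of the read length.

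The Hdac4 fragment was chr1:92179991-92180034, 44 bp with 8 CpGs in the first exon. In VEH 11 of 12 libraries were at 0% and replicate 12 at 1.61%, which was 1 methylated call of 62. In DDT 7 of 12 libraries were at 0%, and replicates 1, 9 and 11 stood at 2.7%, 3.7% and 4.55%, each from 1 methylated call of 37, 27 and 22. DDT replicates 4 and 12 stood at 2.0% and 2.13%, from 121 of 6057 and 9 of 423 calls. The means of 0.134% ± 0.466 and 1.26% ± 1.69 (SD, n = 12 each) thus differed by 1.12 ± 0.505 (SE) points, with 3 of the 5 DDT libraries above 0% resting on single calls (F test p = 0.0368, adjusted p = 0.869; permutation p = 0.0364). Leaving out any of those 5 DDT libraries took the unadjusted p of the F test above 0.05, to between 0.057 and 0.0717. With at least 20 calls the p of the F test was 0.108. With limma on log2 ratios of calls the sign turned, to -0.325 on the log2 scale (p = 0.413). A library without methylated calls is scored there by its total calls alone, so this value is not a difference in level.

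**Figure D4:**
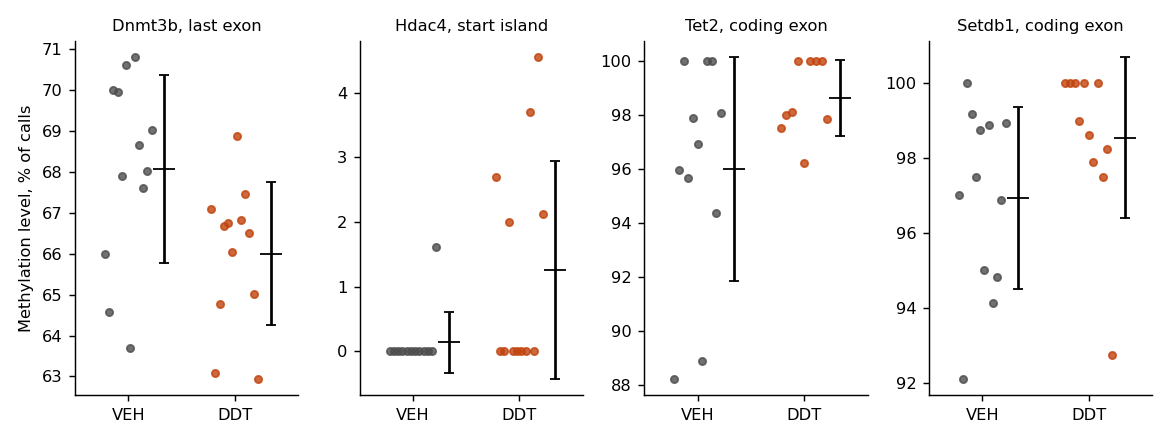
Methylation level (% of calls) of each VEH (grey) and DDT (orange) library at 4 fragments of Dnmt3b, Hdac4, Tet2 and Setdb1, with mean ± SD in black and a separate y axis for each panel. The groups overlap in all panels; the Dnmt3b means are 68.1% and 66%, and 11 VEH and 7 DDT libraries are at 0% for Hdac4.

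DDT replicate 4 stood apart at these genes, and not only there. Over all tested fragments of the table it had a level at 59.96%, the lowest share of any library. In the 20 fragments outside islands this library had a level at 3 and a median of 2.0 calls, whereas in the 44 island core fragments it had a level at 37, a median of 425.0 calls and up to 28455 calls at 1 Bmi1 fragment. At 25 of the 41 fragments where it had a level, that level lay outside the range of the other 23 libraries. It was the lowest of all libraries at 18, mostly at or near 0%, and the highest at 7. The high values included 3 of the near-identical Tet2 copies, with 19.1% of 450 calls, 10.04% of 4722 calls and 28.3% of 2244 calls, and an Asxl1 island fragment, chr2:153346454-153346505, with 12.95% of 4130 calls. At the Tet2 copy chr3:133544610-133544651 the DDT mean of 4.08% ± 7.65 became 1.88% ± 0.387 without DDT replicates 4 and 12, beside 1.95% ± 0.271 in VEH. Over the 66 fragments the SD was larger in DDT than in VEH at 48 (72.7%) with all libraries, against 79.2% of all tested fragments of the table. Without DDT replicates 4 and 12 it was larger at 41, with a median SD of 1.72 points in DDT and 1.89 in VEH. Of all libraries, DDT replicates 4, 12 and 3 lay outside the range of the others most often, at 25, 14 and 12 fragments, against 1 to 6 for each other library. These counts and the 41 above cover the 66 fragments only. They do not show whether these genes differ from the rest of the table.

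**Figure D5:**
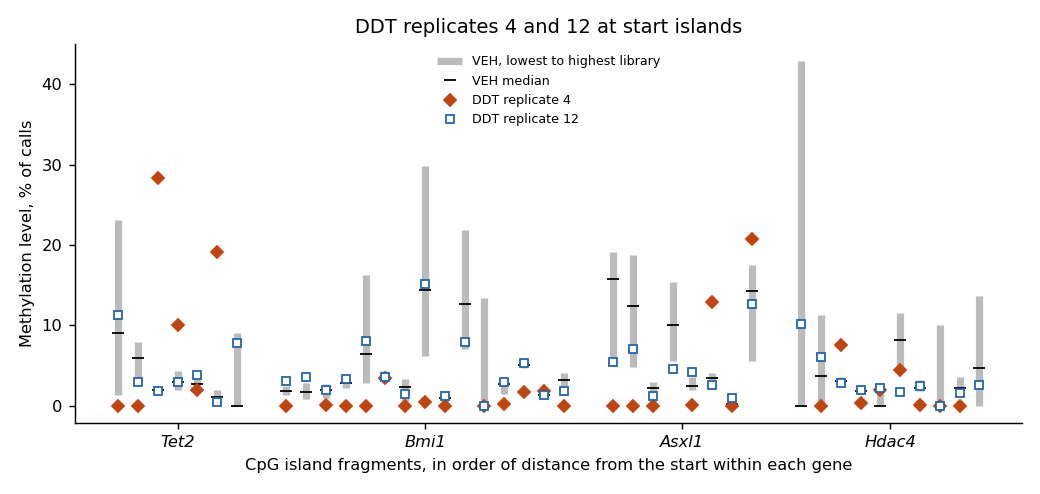
Methylation level (% of calls) at the CpG island fragments of Tet2, Bmi1, Asxl1 and Hdac4, ordered by distance from the start, with the VEH range as grey bars, the VEH median as black dashes, DDT replicate 4 as orange diamonds and DDT replicate 12 as blue squares. DDT replicate 4 sits at or near 0% at many fragments and at 28.3%, 19.1% and 10.04% at the Tet2 copies.

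Other genes of the same pathways were taken from a list of 189 genes in 5 roles, of which 22 had fragments in the table and 19 had tested ones. Of their 230 tested fragments 6 (2.61%) had an unadjusted p under 0.05, all lower in DDT, beside 2.93% of the table lower and 1.25% higher, and none passed adjustment. Without DDT replicates 4 and 12 there were 3 lower and 2 higher of 220, and leaving out DDT replicate 4 or VEH replicate 10 alone gave 6 lower and 3 higher of 229. By role, with all libraries, 5 of 99 fragments of other histone methylation genes and 1 of 77 of histone acetylation genes were lower, and 0 of 13 of DNA methylation genes and 0 of 41 of Polycomb genes. Those 5 were named for Prmt6, Setd7 and Smyd2 only. The Prmt6 ones included fragments 164776 bp and 1941149 bp upstream of that gene. No other H3K9 methylation gene had a fragment. The smallest p was at Prmt6, an arginine methyltransferase, where chr3:110250021-110250070 held 8.21% ± 2.10 in VEH and 5.61% ± 2.91 in DDT (n = 12 each; F test p = 0.0198, adjusted p = 0.869). Setd7, a lysine methyltransferase, followed with 9.96% ± 6.75 and 4.56% ± 2.15 (F test p = 0.0251). Smyd2, also a lysine methyltransferase, had 19.6% ± 4.49 and 14.7% ± 5.51 at a fragment 96039 bp upstream (p = 0.0256). Brd3, a reader of acetylated histones, had 39.2% ± 4.09 and 34.7% ± 5.47 (p = 0.0418), and the acetyltransferase Hat1 had 4.08% ± 0.732 and 3.30% ± 1.21 (p = 0.0702).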

How the data were processed

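RRBS counts of infant BAT were analysed from 12 VEH and 12 DDT libraries. The deposited column label of DDT replicate 12 is numbered outside the unbroken series of the other libraries, and the labels give no reason. Libraries were made with 15 PCR cycles and sequenced as 50 bp single-end reads. The authors trimmed reads with Scythe and Sickle (Q30, at least 30 bp), aligned them to GRCm38 with Bismark 0.15.0 and Bowtie 2, and deposited, per MspI fragment, counts of methylated and not methylated CpG calls with no normalization. They also deposited each fragment's gene name, island class and distances in bp. Gene positions and the start of the longest protein-coding transcript came from GENCODE M21, and sequence from the RefSeq copy of GRCm38. 100% of the 65535 fragments began at an MspI cut.

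The level was the percent of methylated calls in a library with 10 or more calls. Where 8 or more VEH and 8 or more DDT libraries had a level, the fragment entered the ANOVA F test that the study names, with Benjamini-Hochberg adjustment (threshold 0.05). The differential methylation package of the study was not run. With that package the paper reports differentially methylated genes in DDT-exposed infants, genome-wide, at an FDR under 0.05. The result here, on fragments that end within chromosome 3, is not a rerun of that analysis. Single values were compared by two-sided permutation tests of 100000 resamples, exact where a group had fewer than 10 libraries. For each gene the tested fragments nearest the start, with the smallest p and with the highest VEH level were named, and of the other listed genes the 5 with the smallest p. Further fragments (the Tet2 copies, abutting pairs, extremes of DDT replicate 4 and those at starts named for other genes) were chosen after their values were seen. The 9 genes and the list were chosen with earlier results of these data known. Alternatives were a minimum of 1, 5 or 20 calls, a level required in each of the 24 libraries, total calls as a covariate, a block for replicate number, libraries left out, a quasi-binomial regression, and limma on log2((methylated + 1) / (not methylated + 1)).

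On simulated calls for 20225 fragments of DDT against VEH, the F test called 40 of 100 fragments shifted by 10 points, 77 of 100 shifted by 20 and 4 unshifted. Shifts were placed only on fragments with mid-range VEH levels, and the spread of both groups was taken from the VEH libraries. Of the 66 tested fragments of the 9 genes, 9 were intermediate (20% to 80%). Their median SD over all 66 was 2.47 points in DDT and 1.89 in VEH. The simulated counts therefore do not describe the low start fragments or smaller shifts. Among 132 within-group pairs of libraries the smallest chi-square per fragment averaged 1.83, above the sampling noise, so none was counted as a duplicate. PCR reads without molecular identifiers are not independent molecules. Python 3.11.15, NumPy 2.4.6, pandas 2.3.3, SciPy 1.17.1, matplotlib 3.10.9, R 4.3.3 and limma 3.58.1 were used.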

Additional observations from a re-analysis of the deposited data

Results flagged for a closer look

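At 7 groups of 4 to 10 libraries among the named fragments, 2 held a library far from the others by Dixon's criterion. Chance flags about 1 in 20 groups, but that rate does not apply to these, where 8 libraries of each group were tied at 0% and any single library above 0% is flagged in the DDT group. Both were at the Suv39h2 fragment nearest the start, chr2:3474891-3475013. VEH replicate 6 stood at 43.5% (62 calls) when the next VEH library was at 12.5%, and DDT replicate 12 stood at 7.26% (248 calls) when the other 8 DDT libraries were at 0%.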

How the results depend on the processing

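The number of fragments past the adjusted threshold was 0 under every alternative run. The number of fragments of the 9 genes with an unadjusted p under 0.05 was 2, and became 5 with the quasi-binomial regression (which called 7.72% of all tested fragments), 0 with limma, 4 with the replicate block and 0 among the 27 fragments of 50 bp or more that do not directly follow a shorter one, an alternative added after the data were seen. When each library was left out in turn the lowest count was 1, for DDT replicate 4, and the highest 5, for DDT replicate 3. For the other listed genes it was 6, and became 12 with the quasi-binomial regression, 2 with levels in all 24 libraries, 3 among the longer fragments, and between 3 (DDT replicate 5) and 10 (DDT replicate 2) when each library was left out. The excess of lower over higher calls in the table, 593 against 252, was 445 against 437 without DDT replicates 4 and 12. These libraries were picked by their low mean levels in the same data, so this change cannot serve as an independent check.

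The Dnmt3b fragment chr2:153686573-153686621 kept an unadjusted p under 0.05 in 32 of 33 alternatives, with a difference of -2.46 to -1.79 percentage points over left-out libraries, and lost it with limma (p = 0.165). The Hdac4 fragment chr1:92179991-92180034 kept it in 25 of 33, and lost it with at least 20 calls (p = 0.108) and without DDT replicates 4 and 12 (p = 0.0916). It turned to -0.325 on the log2 scale with limma (p = 0.413), where a library without methylated calls is scored by its total calls alone. Differences that missed the threshold turned sign as follows, and the cause was not tested. With the quasi-binomial regression they became -0.126 for Dnmt3b at 153676821, 0.419 for Asxl1 at 153345724, 0.277 for Ehmt1 at 24837206 and 0.332 for Hdac4 at 91928854. With limma they became -0.0197 for Tet2 at 133797383 and -0.034 for Mbd5 at 49216662 on the log2 scale. With no minimum beyond 1 call they became -1.34 for Dnmt3b at 153676821, -2.0 for Tet2 at 133468038 and 0.533 for Asxl1 at 153338981, and with at least 20 calls 0.857 for Asxl1 at 153345724. The depth covariate gave 0.0457 for Ehmt1, and the block 3.86 for Asxl1 at 153338981. Without DDT replicates 4 and 12 the values were 0.446 and 1.44 for Asxl1 at 153338981 and 153345724, 0.297 for Hdac4 at 91928854 and -0.055 for Hdac4 at 92180074. Over left-out libraries, sign changes occurred within -2.31 to 2.26 and -1.14 to 0.857 for these Asxl1 fragments, -0.0583 to 3.69 for Dnmt3b at 153676821, -0.238 to 0.346 for Ehmt1, -0.544 to 0.297 and -0.0769 to 0.383 for these Hdac4 fragments, and -0.061 to 0.334 and -0.0873 to 0.207 for Mbd5 at 49216662 and 49308622. The 40 recomputed VEH levels moved by less than 1 SD.

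The replicate numbers did not pair the libraries, since same-numbered libraries correlated in their deviations from the group means between -0.18 and 0.199 over 12 pairs and 1 of 12 correlated best with its own number. With the block, Tet2 at 133468038 went from an unadjusted p of 0.0855 to 0.0322. Depth limits some fragments, with libraries resting on as few as 10 calls for the Dnmt3b coding exon, 12 for that of Tet2 and 11 for Suv39h2 at 3474891.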
